A study of Mus musculus with 16 samples.

Results

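FOXD3 depletion was examined in the G1 fraction of mouse embryonic stem cells by ATAC-seq, an assay that reads open chromatin from where a transposase cuts the DNA. The comparison covers 4 of the 16 libraries of the series: 2 from cells given 4HT, the agent that induces the depletion and that the design text calls tamoxifen, and 2 from cells given EtOH, the control. The labels give the genotype of both groups as FOXD3-iKO, the culture condition as L2i and the treatment time as 24 h, and DAPI staining of DNA content was used to sort the phases. The groups therefore share the inducible allele, and no library here comes from cells without it. Whether 4HT alone alters chromatin in cells that lack the allele cannot be told apart from depletion. The driver of the inducible system, the number of clones and the residual FOXD3 protein are not stated in the labels. The same 2 treatments in the fractions named ES, LS and G2 stand beside the G1 values; the names ES and LS are kept as the labels write them.

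FOXD3 is a forkhead transcription factor, a family whose winged-helix domain binds DNA at sequences built around an A/T-rich core. It is expressed in pluripotent cells and in premigratory neural crest, and it has been described both as a factor that opens enhancers and as one that recruits repressors to them. G1 is the phase between division and DNA synthesis, in which cyclin D kinases, the retinoblastoma family of pocket proteins and the loading of replicative helicases prepare the cell for S phase.

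The deposited signal exists for 38053 distinct intervals of 5000 bp at transcription start sites (TSSs), called windows here, and for 127646 accessible regions with a median width of 252 bp. At least 1 of the G1 columns held a read in 37014 windows and in 113172 regions. Each group was deposited as 1 column in which its 2 libraries are pooled, so no value below has an SD between libraries. All levels are multiples: the signal of an interval divided by the smallest signal of its column, which is the worth of 1 read. The signal is an average over bases that hold a read, so a multiple cannot lie below 1, and an interval without reads has no value. Several reads that do not overlap also give a multiple of 1, so this value does not mean a single read. In bulk cells, fewer cells with an open site and less opening per cell cannot be told apart.

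The 4HT column was the shallowest of the 8, with an implied depth of 6.78 M reads against 9.96 M for EtOH. Over windows with a read, 4HT had a median multiple of 1.18 and EtOH one of 1.26, and 3.48% and 7.02% of all windows reached a multiple of 2. The windows of 8 embryonic stem cell markers, Pou5f1, Sox2, Nanog and Zfp42 among them, had a median multiple of 1.49 in 4HT and 1.97 in EtOH. Of 8 fibroblast markers, 7 had a window, with medians of 1.15 and 1.25, near the value of 1 read. Of the 8 stem cell markers, Pou5f1, the gene of OCT4 (2.17 in 4HT and 2.79 in EtOH), Zfp42, Tfcp2l1 and Dppa5a had the lower multiple in 4HT. Sox2 (2.04 and 1.26), Nanog (1.36 and 1.17), Klf2 and Esrrb had the higher one. These multiples are not centred, and 1 read is worth more signal in the shallower 4HT column. A lower multiple in 4HT is therefore not in itself a lower signal, and these orders are not read as loss or gain.

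At the Foxd3 locus the treatments differed by about the size of the standard error. The window of Foxd3 (chr4:99653650-99658649, mm10) had multiples of 1.65 in 4HT and 1.53 in EtOH in G1, 1.54 and 1.63 in ES, 1.56 and 1.27 in LS, and 1.5 and 1.23 in G2. The centred log2 difference in G1 was 0.28 with an SE of 0.27 (limma, adjusted p = 0.981). Accessibility of the gene's own promoter does not measure the protein, so the depletion itself was not checked by these files. The 250 bases before the Foxd3 TSS, shown because this is the depleted gene, lie at chr4:99656049-99656298 on the + strand of GRCm38.p6 in RefSeq. They hold neither of 2 forkhead cores that were searched on both strands, TGTTTAC and TTTGTTT.
Foxd3: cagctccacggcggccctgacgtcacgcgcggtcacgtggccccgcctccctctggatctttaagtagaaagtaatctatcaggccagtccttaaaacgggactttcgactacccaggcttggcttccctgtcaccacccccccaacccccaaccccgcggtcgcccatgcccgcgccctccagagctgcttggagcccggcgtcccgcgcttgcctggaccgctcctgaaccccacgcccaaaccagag

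Rows with a read in only one of the paired columns are the first place where a gain or loss could show. In G1, 71599 regions (56.1%) were read in both columns, 14215 (11.1%) in 4HT only, 27358 (21.4%) in EtOH only and 14474 in neither. The ratio of 4HT-only to EtOH-only regions was 0.52 in G1, 1.26 in ES, 1.69 in LS and 0.66 in G2. In each fraction the deeper column held more regions of its own: EtOH was deeper in G1 and G2, and 4HT was deeper in ES (9.75 against 8.38 M reads) and LS (11.1 against 8.17 M). The part of depth in the G1 split was not tested beyond this order. Of the one-column regions 72.2% of those read in 4HT and 57.7% of those read in EtOH held the value of 1 read.

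**Figure D1:**
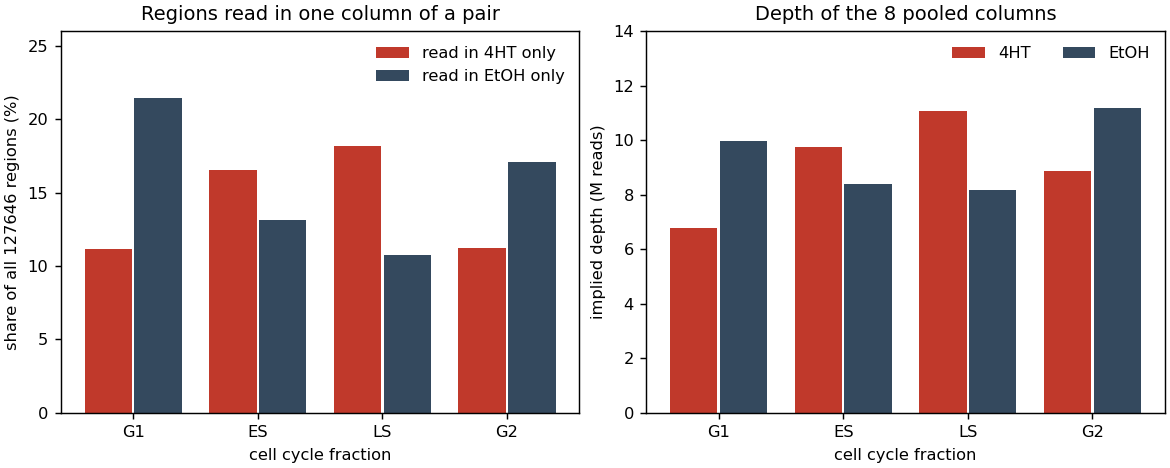
The left panel gives the share of all regions (%) read in 4HT only or in EtOH only in each cell cycle fraction, and the right panel the implied depth of each pooled column in M reads. In G1 the shares are 11.1% and 21.4% at 6.78 and 9.96 M reads, and in every fraction the taller left bar belongs to the deeper column.

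Regions read in one G1 column only were read about as often under either treatment in the other fractions. The 14215 regions read in 4HT only were read, on average over ES, LS and G2, in 65.9% of the 4HT and 63.0% of the EtOH columns. The 27358 regions read in EtOH only were read in 69.0% of the 4HT and 67.2% of the EtOH columns. Of the 4HT-only regions, 144 were read in all 3 other 4HT columns and in no other EtOH column, while 126 had the opposite pattern. The same counts were 236 and 177 for the EtOH-only regions and 327 and 198 for the regions read in both G1 columns, and 198 and 156 for those read in neither. Among the windows, 258 (0.678%) were read in 4HT only and 500 (1.31%) in EtOH only.

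The one-column rows with the highest multiples included promoter regions of known genes, but most were read elsewhere under both treatments. A region of 467 bp at the TSS of Rpl31, a protein of the large ribosomal subunit (chr1:39367642-39368108), had a multiple of 4.24 in 4HT and no read in EtOH in G1. In the other fractions it stood at 2.58 and 1.24 (ES), 1.91 and 1.28 (LS), and 3.03 and 3.18 (G2). Regions nearest to Gpr171, Vac14, Gm42308 and Igfbpl1 had multiples of 3.78 to 4.13 in 4HT with no EtOH read, and all 4 were read in every other column. In the opposite direction, regions nearest to Gm15998, Tmem92, Ccdc97, Gas2l1 and Gm31223 had multiples of 4.81 to 5.92 in EtOH with no 4HT read. The region near Gm15998 (chr3:89316925-89317119) was the highest of them at 5.92, and its other columns lay between 1.0 and 2.99.

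Among the windows, the highest one-column values belonged to Gm13276 and Gm13277, neighbouring predicted genes of the type I interferon cluster on chromosome 4. The window of Gm13276 (chr4:88782405-88787404) had a multiple of 4.60 in 4HT and no read in EtOH in G1. It was 2.28 against no read in ES, 2.75 against 1.0 in LS and 2.60 against 1.0 in G2, higher in 4HT in every pair. The neighbouring window of Gm13277 (chr4:88785328-88790327) overlaps it and had 4.60 and no read in G1, 2.28 and no read in ES, 2.75 and no read in LS, and 1.63 and 1.0 in G2. Both windows lack a read in a column and so stayed out of the test, and genes of this cluster are close copies whose reads may be shared. The remaining one-column windows had multiples of at most 1.87 in 4HT (Gm26032, an unnamed window on the Y chromosome and n-R5s103) or 2.30 in EtOH (LOC115486238, Vmn2r42, Gm22317, LOC115488065 and an unnamed window on chromosome 11).

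For intervals read in all 8 columns, the 4HT minus EtOH difference in G1 was tested on log2 multiples centred along the level by cyclic loess. The limma model gave G1 its own treatment term and took the spread from the treatment differences of ES, LS and G2, so the G1 columns are assumed to vary like those. The p-values measure the spread between pooled columns, not between cultures. The test covered 15323 windows with a mean multiple of at least 1.3, and 2 of them (0.0131%) were higher in 4HT and 0 (0%) lower at an adjusted p under 0.05. An unadjusted p under 0.05 was reached by 836 windows, where 766 would be reached by chance. With another fraction singled out in the same limma model, it was reached by 665 windows in ES, 899 in LS and 744 in G2. Calls then numbered 1 in ES, 0 in LS and 0 in G2. The split of the G1 calls moved with the processing: 5 windows were higher and 2 lower on log2(signal + 0.1). The counts were 22 and 0 on the values as deposited, and 6 and 15 with a Poisson mean per base. A log2 difference of 0.5 or more was seen in 682 windows upward (4.45%) and 565 downward (3.69%).

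**Figure D2:**
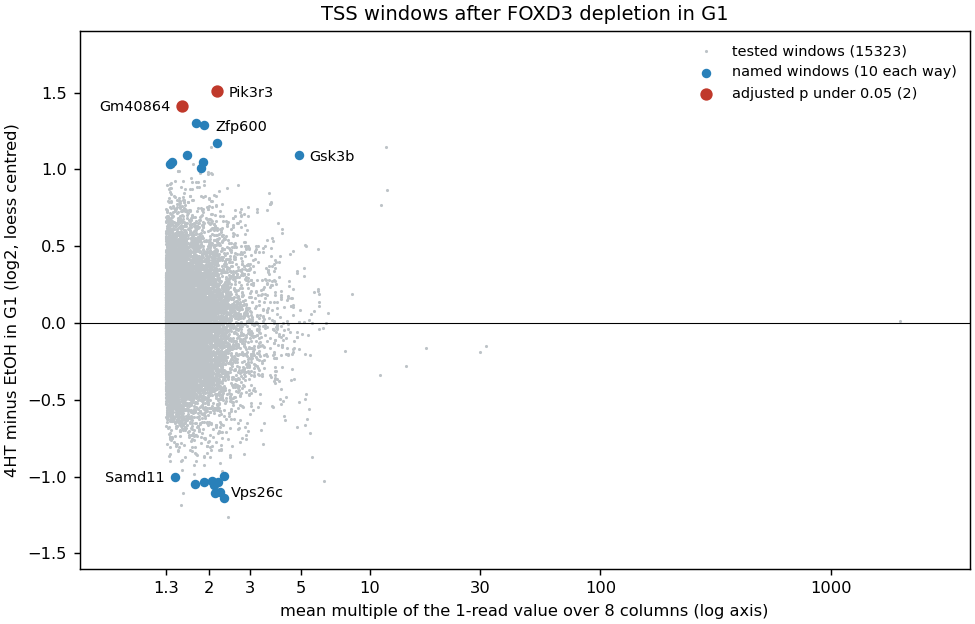
Each point is a tested TSS window: the x axis is its mean multiple over the 8 columns on a log axis, and the y axis is its loess-centred log2 difference, 4HT minus EtOH, in G1. The 2 windows past the threshold, Pik3r3 (1.51) and Gm40864 (1.42), stand at the top, and most of the other points lie between -0.5 and 0.5.

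Pik3r3 encodes p55-gamma, a regulatory subunit of class I phosphoinositide 3-kinase, the enzyme that produces the lipid signal for AKT. Its window (chr4:116218969-116223968) had multiples of 3.55 in 4HT and 1.48 in EtOH in G1. The other columns held 2.01 and 1.58 (ES), 2.74 and 1.82 (LS), and 1.84 and 2.41 (G2), so the 4HT value in G1 was the highest of the 8 and the EtOH value in G1 the lowest. The centred log2 difference was 1.51 with an SE of 0.30 (limma, adjusted p = 0.0353), and those of ES, LS and G2 were 0.27, 0.39 and -0.15. The accessible region inside this window (chr4:116220728-116222064), which spans the TSS, had multiples of 5.32 and 1.87 and a log2 difference of 1.97, SE 0.52 (limma, adjusted p = 0.714). The window's call was lost without a level minimum (adjusted p = 0.185), with the higher minimum (0.191) and without the G2 fraction (0.369), each with a log2 difference of 1.51.

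The window of Gm40864, a predicted protein-coding gene (chr12:22620738-22625737), had multiples of 2.38 in 4HT and 1.0 in EtOH in G1. The other pairs were 1.34 and 1.14 in ES, 1.46 and 1.0 in LS, and 2.01 and 1.87 in G2, with 4HT the higher in each. The centred log2 difference in G1 was 1.42 with an SE of 0.26 (limma, adjusted p = 0.0231). EtOH stood at the value of 1 read, below which a read interval cannot lie. The call was lost without a level minimum (log2 difference 1.41, adjusted p = 0.176), under a Poisson correction for reads hidden by the average (5.05, adjusted p = 0.0541) and without the G2 fraction (1.37, adjusted p = 0.304), and the higher level minimum left the window out.

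**Figure D3:**
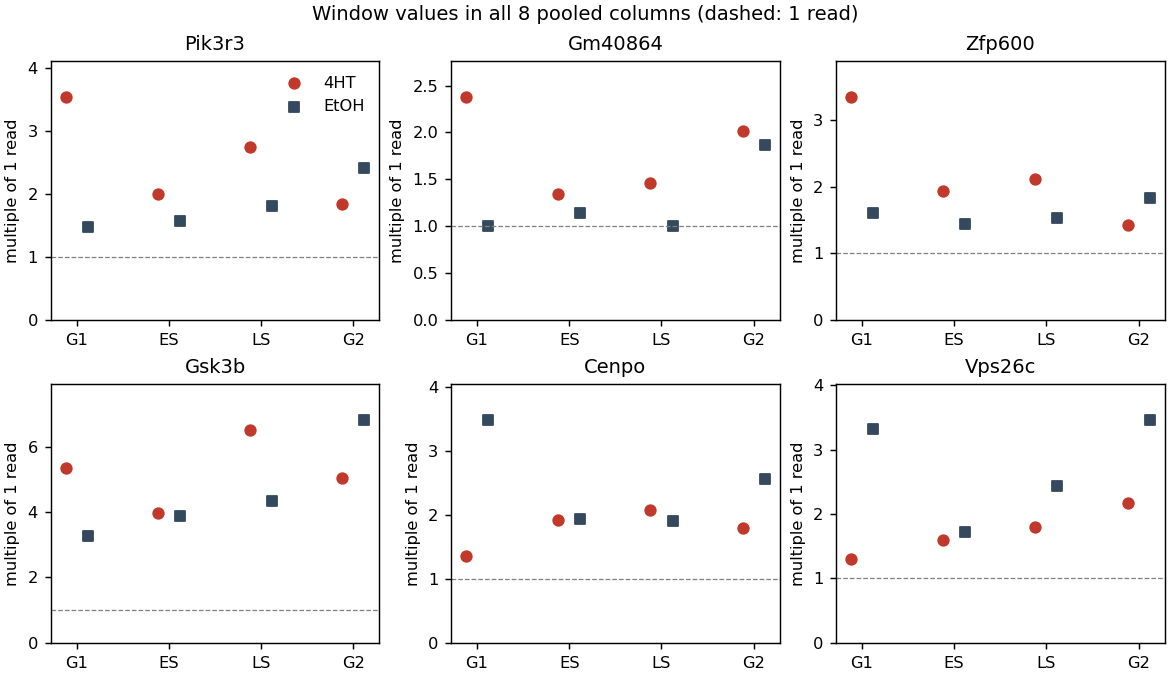
Multiples of the 1-read value (y axis, from 0) for 6 windows in the fractions G1, ES, LS and G2, with 4HT as circles, EtOH as squares and a dashed line at 1 read. Pik3r3 stands at 3.55 against 1.48 in G1 and 1.84 against 2.41 in G2, and Vps26c at 1.31 against 3.32 in G1.

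In the fit described, none of the other named windows passed the threshold; the 10 largest and 10 smallest differences among named protein-coding genes with a multiple of at least 2 in a G1 column are described by their values. The upper group had log2 differences of 1.01 to 1.51, Pik3r3 at the top, and comprised Ino80c, Zfp600, Ccdc126, Rpl11, Gsk3b, Spink8, Ribc1, Cnot2 and Smc1a besides. Gsk3b encodes glycogen synthase kinase 3 beta, which marks beta-catenin for destruction and whose inhibition is part of many media for embryonic stem cells. It had the highest level of the group: 5.36 in 4HT and 3.28 in EtOH in G1, 3.97 and 3.87 in ES, 6.51 and 4.34 in LS, and 5.04 and 6.82 in G2 (chr16:38086352-38091351). Its G1 difference was 1.09, SE 0.28 (limma, adjusted p = 0.270), and the G1 values lay inside the range of the other columns except for EtOH, which was the lowest of the 8. Zfp600 encodes a KRAB zinc finger protein of a large chromosome 4 cluster with near-identical copies, so its reads are uncertain. It had 3.35 and 1.61 in G1 (chr4:146154175-146159174), a difference of 1.29, SE 0.30 (limma, adjusted p = 0.145).

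Values of other members of the upper group follow. Ino80c encodes a subunit of the INO80 nucleosome remodeller, and its window (chr18:24119604-24124603) stood at 2.46 in 4HT and 1.15 in EtOH. Rpl11, a ribosomal protein that also binds MDM2, stood at 2.27 and 1.20 (chr4:136051079-136056078), and Cnot2, a subunit of the CCR4-NOT deadenylase, at 2.09 and 1.10 (chr10:116578632-116583631). Smc1a, a cohesin subunit, and Ribc1 share a divergent promoter on the X chromosome, so their overlapping windows are one observation: 3.18 in 4HT and 1.85 in EtOH for that of Smc1a (chrX:152013779-152018778). In ES that window had the opposite order, 1.12 in 4HT and 1.65 in EtOH. Adjusted p-values of these windows, limma, were between 0.124 for Ino80c and 0.483 for Smc1a. Under other settings Ino80c passed in 6 (adjusted p from 0.00937 to 0.0489), Zfp600 in 5 (from 0.00457 to 0.0489), Spink8 in 3, Ccdc126, Cnot2, Ribc1 and Smc1a in 2 each and Rpl11 in 1. The differences of the 10 upper windows were 1.13 to 3.14 with the Poisson mean.

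The lower group had log2 differences of -1.14 to -0.99 and comprised Sec11c, Cenpo, Vps26c, Ptrhd1, Cebpz, Mad2l1, Rab5c, Parp2, Samd11 and Tkfc. Cenpo encodes a kinetochore protein of the constitutive centromere network and Mad2l1 the spindle checkpoint protein MAD2. The window of Cenpo (chr12:4231945-4236944), which overlaps that of Ptrhd1, had 1.36 in 4HT and 3.48 in EtOH in G1, 1.92 and 1.93 in ES, 2.08 and 1.91 in LS, and 1.79 and 2.55 in G2. Its difference was -1.11, SE 0.29 (limma, adjusted p = 0.278). The window of Mad2l1 (chr6:66532741-66537740) had 1.18 and 2.87 in G1 but 3.91 and 2.28 in LS, the opposite order. Its G1 difference was -1.04, SE 0.30 (limma, adjusted p = 0.483).

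Vps26c, a subunit of the retriever complex that recycles endosomal cargo, was the one member of the lower group with a lower 4HT value in all 4 pairs both before and after centring; Cenpo was so after centring only. Its window (chr16:94524481-94529480) had 1.31 and 3.32 in G1, 1.60 and 1.72 in ES, 1.81 and 2.43 in LS, and 2.17 and 3.46 in G2. The centred differences were -1.10 in G1 (SE 0.30; limma, adjusted p = 0.305), -0.18 in ES, -0.63 in LS and -0.44 in G2. Parp2, a DNA break sensor, stood at 1.08 in 4HT and 2.61 in EtOH (chr14:50805418-50810417), Cebpz at 1.07 and 2.55 (chr17:78934721-78939720), and Samd11 at 1.0 and 2.20 (chr4:156252989-156257988). The window of Parp2 also carries the name Rpph1 and that of Cebpz the name Ndufaf7, so their signal cannot be given to a single gene. Of the lower group, Samd11 had a higher 4HT value in each of the other 3 fractions. Adjusted p-values in the lower group, limma, ran from 0.269 to 0.527. The 10 differences were -0.61 to -0.37 as deposited and -3.71 to -1.59 with the Poisson mean, under which Parp2 (adjusted p = 0.0207) and Cebpz (0.0448) passed.

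**Figure D4:**
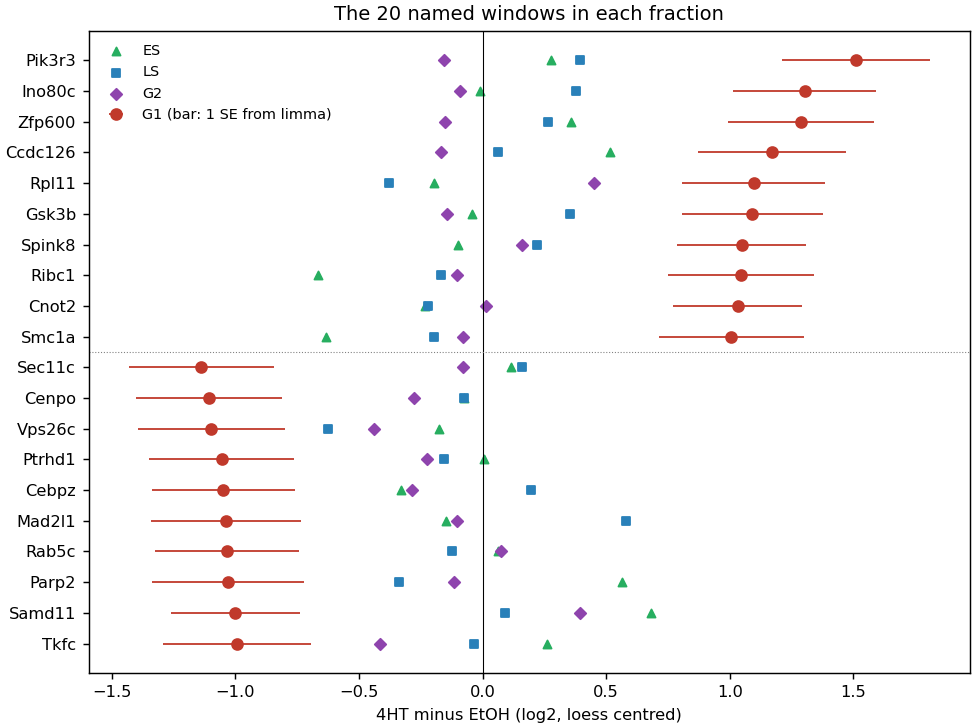
Loess-centred log2 differences, 4HT minus EtOH (x axis), of the 20 named windows in G1 (red, with a bar of 1 SE from limma) and in ES, LS and G2. The G1 values lie at 1.01 to 1.51 or -1.14 to -0.99, and the other fractions scatter around 0. The windows were picked by their G1 differences, so smaller differences in the other fractions come with that choice.

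Across fractions, the differences of these 20 windows took either sign. The 20 were picked by their G1 differences, so smaller differences elsewhere come with that choice and do not mark an effect limited to G1. In the upper group 12 of 30 differences in the other fractions had the sign of G1, and the medians were -0.07 in ES, 0.14 in LS and -0.10 in G2. In the lower group 18 of 30 had it, with medians of 0.03, -0.05 and -0.17. These counts and medians take overlapping windows separately, so they are not counts of independent observations. Ribc1 and Smc1a each gave 0 to the upper count, and Cenpo gave 3 and Ptrhd1 2 to the lower one. Over all 15323 windows the difference in G1 and that in another fraction had a Pearson r of -0.01 (ES), 0.01 (LS) and 0.02 (G2), a description across windows that share columns, depth and centring. The SD of the difference over windows was 0.29 in G1, 0.28 in ES, 0.29 in LS and 0.28 in G2. Over all windows G1 was therefore about as wide as the rest. By level, a robust SD (median absolute deviation) in G1 lay inside the range of the other fractions below 2 and at 3 to 5. At 2 to 3 it was 0.33 in G1 against 0.29 in ES, 0.31 in LS and 0.28 in G2. Above 5 (43 windows) it was 0.30 against 0.20, 0.27 and 0.21. Over the tested regions it was 0.64 against 0.60, 0.59 and 0.59. Where G1 is wider, its p-values may be too small. When the G1 difference was tested against the mean difference of the other fractions, 0 windows (0%) passed in limma, 816 had an unadjusted p under 0.05, and the smallest adjusted p was 0.335. For Pik3r3 this contrast was 1.34, SE 0.34 (limma, adjusted p = 0.367), and for Gm40864 1.15, SE 0.30 (limma, adjusted p = 0.424).

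At the accessible regions, 0 of the 11010 tested regions with a mean multiple of at least 2 passed in limma in either direction (0%), and 613 had an unadjusted p under 0.05, where 550.5 would by chance. The smallest adjusted p in G1 was 0.653. With another fraction singled out in limma, an unadjusted p under 0.05 was reached by 542 regions in ES, 554 in LS and 514 in G2. Calls then numbered 0 in ES, 1 in LS and 0 in G2. A log2 difference of 1 or more in G1 was seen in 742 regions upward (6.74%) and 628 downward (5.7%). Against the mean of the other fractions, 0 regions (0%) passed in limma, and 614 had an unadjusted p under 0.05. By distance from a TSS, the median G1 difference was 0.00 within 1 kb (6223 regions), 0.02 at 1 to 10 kb (2461), 0.03 at 10 to 100 kb (2172) and 0.08 beyond 100 kb (154).

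Of the named regions, those of Cebpz, Vps26c and Radil overlapped a TSS, and the others lay 1220 to 66359 bp from one. A region of 513 bp, 2959 bp from the TSS of Slc25a4, the heart and muscle ADP/ATP carrier (chr8:46214021-46214533), had multiples of 3.90 in 4HT and 1.0 in EtOH in G1. It had 3.93 and 1.0 in ES, 7.76 and 3.21 in LS, and 6.60 and 3.50 in G2, so every 4HT value was above every EtOH value. The centred differences were 2.39 in G1 (SE 0.51; limma, adjusted p = 0.653), 1.81 in ES, 0.95 in LS and 1.28 in G2. A region 39781 bp from the TSS of Pawr, an inducer of apoptosis (chr10:108292164-108292408), had 5.05 and 1.0 in G1, 5.08 and 1.31 in ES, 4.31 and 2.30 in LS, and 3.06 and 3.65 in G2. Its G1 difference of 2.80, SE 0.60, was the largest named one (limma, adjusted p = 0.653). Without the ES fraction, Pawr (adjusted p = 0.00665), Slc25a4 (0.0132), Grid1 (0.0057) and Msrb2 (0.0216) passed, and with the Poisson mean Pawr, Msrb2, Vgll4, Vps26c and Radil did (0.0335 to 0.0403).

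The other 4 named regions with higher 4HT values lay near Uri1, Msrb2, Grid1 and Cyp2b23, with differences of 2.31 to 2.5. The region nearest to Grid1, a delta-type glutamate receptor (chr14:35649746-35649891), had 7.09 and 1.88 in G1 but lower 4HT values in ES (1.22 and 1.75) and G2 (2.15 and 5.81). At the other end, regions near Vgll4, Cebpz, Vps26c, Radil and Catspere2 had differences of -2.18 to -1.98. The TSS region of Vps26c (chr16:94526048-94527199) had 1.21 and 6.45 in G1, 2.17 and 2.76 in ES, 2.57 and 4.40 in LS, and 3.67 and 7.72 in G2, the 4HT value being lower in every pair. Its G1 difference was -2.0, SE 0.49 (limma, adjusted p = 0.714).

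Promoter sequences were examined at the named windows because FOXD3 binds forkhead cores. A RefSeq promoter (GRCm38.p6) matched 15 of the 20 named windows by TSS position, and 2 of those, Zfp600 and Cnot2, held TTTGTTT on either strand, while 0 held TGTTTAC. The 250 bases before the TSS are printed for the called Pik3r3, for both genes with a match, and for Gsk3b and Vps26c as examples of each group without a match; capitals mark a match. They lie at chr4:116221358-116221607 (+), chr4:146156577-146156826 (+), chr10:116580537-116580786 (-), chr16:38088751-38089000 (+) and chr16:94526630-94526879 (-), in the order shown.
Pik3r3: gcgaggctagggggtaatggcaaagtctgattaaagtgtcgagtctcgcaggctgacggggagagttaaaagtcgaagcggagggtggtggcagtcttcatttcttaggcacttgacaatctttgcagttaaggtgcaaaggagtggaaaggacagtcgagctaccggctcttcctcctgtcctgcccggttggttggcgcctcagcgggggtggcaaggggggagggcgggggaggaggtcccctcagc
Zfp600: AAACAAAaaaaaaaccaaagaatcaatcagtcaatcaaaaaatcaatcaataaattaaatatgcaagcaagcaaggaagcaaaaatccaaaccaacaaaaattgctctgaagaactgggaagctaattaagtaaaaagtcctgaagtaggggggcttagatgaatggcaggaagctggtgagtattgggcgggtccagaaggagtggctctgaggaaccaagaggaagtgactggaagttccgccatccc
Cnot2: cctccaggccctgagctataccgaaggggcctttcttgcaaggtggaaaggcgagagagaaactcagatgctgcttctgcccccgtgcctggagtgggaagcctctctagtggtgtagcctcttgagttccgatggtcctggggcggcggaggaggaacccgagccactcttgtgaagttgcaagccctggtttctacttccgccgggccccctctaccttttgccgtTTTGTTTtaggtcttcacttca
Gsk3b: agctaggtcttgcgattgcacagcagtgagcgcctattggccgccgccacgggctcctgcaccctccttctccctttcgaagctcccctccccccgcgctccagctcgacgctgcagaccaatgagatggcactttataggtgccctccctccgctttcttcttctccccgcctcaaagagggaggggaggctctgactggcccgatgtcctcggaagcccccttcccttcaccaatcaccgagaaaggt
Vps26c: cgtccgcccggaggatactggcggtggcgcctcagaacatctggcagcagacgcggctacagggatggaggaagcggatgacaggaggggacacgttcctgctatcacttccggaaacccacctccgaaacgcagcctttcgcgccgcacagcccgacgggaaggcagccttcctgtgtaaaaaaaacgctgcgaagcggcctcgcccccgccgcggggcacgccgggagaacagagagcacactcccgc

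The match at Zfp600 opens the printed stretch, in an A-rich run with 40.8% G+C and 2 CpG, and the match at Cnot2 lies close to the TSS. The stretches of Pik3r3, Gsk3b and Vps26c held 58.8%, 62.0% and 65.6% G+C with 12, 15 and 27 CpG. Over 9604 tested windows with a promoter, TGTTTAC occurred in 197 (2.05%), against 3.17% of all 32851 promoters, and TTTGTTT in 542 (5.64%), against 8.74%; both were searched on both strands, and a stretch may hold both. The median G1 difference was -0.06 with TGTTTAC and 0.00 without, and 0.02 with TTTGTTT and 0.00 without. A log2 difference of 0.5 or more upward was found in 3.55% of the windows with TGTTTAC and 4.29% of those without. One downward was found in 1.02% and 3.75%, and the 1.02% of 197 windows rests on few windows. Windows with TGTTTAC had a median promoter G+C of 56.0%, against 60.4% without. Their median differences in ES, LS and G2 were -0.03, 0.01 and -0.01. In 5 bins of promoter G+C content the median G1 difference lay between -0.01 and 0.01. A match in these letters is not a site of FOXD3.

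Genes were also described in 26 lists covering cell cycle control, pluripotency, lineages, signalling and chromatin. The 1 list member that passed the threshold was Pik3r3. List medians in G1 lay between -0.14 and 0.11, against 0.00 over all tested windows, of which 7694 of 15323 were above 0. The lists were chosen with results of these data known, and no test was run on them.

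None of the genes that drive G1 passed the test in limma. Of 11 tested genes for G1 cyclins and their kinases, 0 passed, 2 were above 0 and the median was -0.13 (-0.06 in ES, 0.10 in LS and 0.15 in G2). Their lowest member was Ccnd3, the gene of cyclin D3, at 1.07 in 4HT and 1.61 in EtOH, with a difference of -0.42, SE 0.27 (limma, adjusted p = 0.963). Their highest was Cdk6, a kinase partner of the D cyclins, at 1.56 and 1.54, with a difference of 0.20. Of 13 CDK inhibitors and pocket proteins, 4 were above 0, with a median of -0.11. Cdkn2a, the gene of the INK4A and ARF tumour suppressors, was the highest at 2.58 and 1.85 (0.69, SE 0.29; limma, adjusted p = 0.875), and Rbl2, the gene of the pocket protein p130, the lowest at 1.26 and 1.92 (-0.41).

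Genes for S phase entry and replication had medians near 0 as groups. The 8 E2F factors and partners had a median of 0.04, with E2f5 at 0.35 and E2f1 at -0.16. The 16 origin licensing genes, which load the MCM helicase, had a median of -0.02. Orc1, the largest subunit of the origin recognition complex, had 1.01 in 4HT and 1.77 in EtOH (-0.64, SE 0.27; limma, adjusted p = 0.875), and Mcm4 2.33 and 2.32 (0.26). The 25 helicase activation and fork genes had a median of 0.08, between Rpa1 at -0.39 and Gins4 at 0.46. The 36 replication-dependent histone genes, a multigene family with near-identical copies, had a median of -0.04, between H2bc14 at -0.63 and H3c10 at 0.55.

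Of 26 genes for G2 and mitosis, 12 were above 0 and the median was -0.04; Cenpo (-1.11) and Mad2l1 (-1.04) are the low members already described, and Cenpa, the centromeric histone, was the highest at 1.71 in 4HT and 1.23 in EtOH (0.67, SE 0.28; limma, adjusted p = 0.875). The 21 genes of the APC/C and SCF ubiquitin ligases had a median of -0.04. Fbxw7, the substrate receptor for cyclin E, stood at 1.51 and 3.20 (-0.83, SE 0.30; limma, adjusted p = 0.759), and Anapc4 at 2.57 and 2.11 (0.55).

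**Figure D5:**
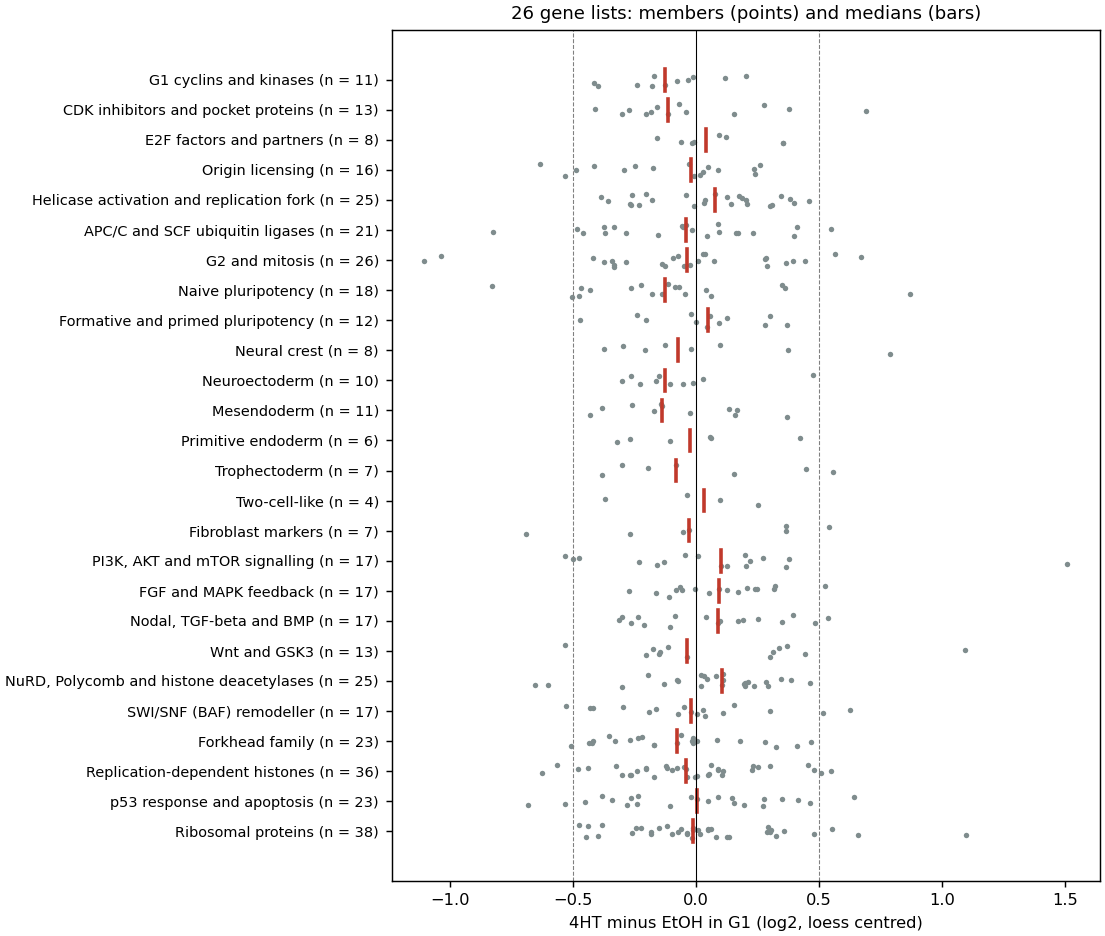
Loess-centred log2 differences, 4HT minus EtOH in G1 (x axis), of the tested members (grey points) of 26 gene lists, with the list median as a red bar and dashed lines at -0.5 and 0.5. The medians lie between -0.14 and 0.11, and Pik3r3 at 1.51 is the point farthest to the right.

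No pluripotency gene passed the test in limma. Of 18 tested naive pluripotency genes 0 passed, 5 were above 0, and the median was -0.13 (0.02 in ES, 0.03 in LS and -0.07 in G2). Sox2, the partner of OCT4, had 2.04 in 4HT and 1.26 in EtOH, with a difference of 0.87, SE 0.28 (limma, adjusted p = 0.593). Lifr, the receptor for the self-renewal cytokine LIF, had 1.19 and 2.41, with a difference of -0.83, SE 0.28 (limma, adjusted p = 0.697). For the 12 formative and primed genes the median was 0.05, between Sall2 at -0.47 and Grhl2, a grainyhead factor of epithelial enhancers, at 0.37. The 4 genes of the two-cell-like state had a median of 0.03, with Duxf3, one of several near-identical copies, at 0.25 and Sp110 at -0.37.

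Median multiples of the lineage lists ran from 1.22 to 1.51 in 4HT and from 1.46 to 1.68 in EtOH. Over all tested windows they were 1.38 and 1.55. The 8 tested neural crest genes of a list of 20 had a median of -0.07. Ngfr, the neurotrophin receptor that marks migrating crest cells, had 1.72 in 4HT and 1.08 in EtOH (0.79, SE 0.26; limma, adjusted p = 0.697), and Msx1 had 1.19 and 1.72 (-0.37). Medians were -0.13 for 10 neuroectoderm genes (Lhx2 at -0.30, Sox1 at 0.48), -0.14 for 11 mesendoderm genes (Mesp2 at -0.43, Mixl1 at 0.37) and -0.02 for 6 primitive endoderm genes (Lamc1 at -0.32, Sparc at 0.42). The 7 trophectoderm genes had -0.08, between Cdx2 at -0.38 and Krt8 at 0.56. A longer fibroblast list, of which 7 genes were tested, had -0.03, between Vim, which embryonic stem cells also express, at -0.69 and Col1a1 at 0.54. Of the forkhead family, 23 of 44 genes were tested, with 7 above 0 and a median of -0.08, between Foxn2 at -0.51 and Foxj3 at 0.47.

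In the signalling lists the extreme members carried the spread. Of 17 tested PI3K, AKT and mTOR genes, 1 passed upward (Pik3r3) and 0 downward, 10 were above 0 and the median was 0.10. Deptor, an inhibitor of mTOR, was the lowest at 1.14 in 4HT and 1.89 in EtOH (-0.53, SE 0.28; limma, adjusted p = 0.949). The 13 Wnt and GSK3 genes had a median of -0.04, and the paralogues at its ends had opposite signs, Gsk3b at 1.09 and Gsk3a at -0.53. The 17 FGF and MAPK genes had a median of 0.09, with Dusp4, a MAP kinase phosphatase, highest at 0.53. The 17 Nodal, TGF-beta and BMP genes also had 0.09, with the inhibitory Smad7 at 0.54 and the Nodal co-receptor Tdgf1 at -0.32.

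The windows of chromatin regulator genes held 0 calls in limma. Of 25 NuRD, Polycomb and deacetylase genes, 18 were above 0 and the median was 0.11 (0.00 in ES, -0.05 in LS and -0.10 in G2). The low member was Mbd2, a methyl-CpG binding subunit of NuRD, at 1.48 and 2.78 (-0.66, SE 0.30; limma, adjusted p = 0.884), and the high member Ezh1, a Polycomb methyltransferase, at 0.46. The 17 SWI/SNF genes had a median of -0.02. Smarca4, the gene of the BRG1 ATPase, had 2.61 and 2.06 (0.62), and Arid1a, a DNA-binding subunit, 1.15 and 1.80 (-0.53). The 23 genes of the p53 response and apoptosis had a median of 0.00, between Apaf1 at -0.69 and Ccng1 at 0.64, and the 38 ribosomal protein genes one of -0.01, between Rpl6 at -0.48 and Rpl11 at 1.10.

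Relative to all windows, 20 of the 26 list medians had 1 sign under every setting tried. The other 6 changed sign in at least 1 setting: E2F factors, origin licensing, Wnt and GSK3, NuRD and Polycomb, SWI/SNF, and p53. The list of NuRD, Polycomb and deacetylase genes fell to -0.04 relative to all windows under the higher level minimum.

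None of the most accessible promoters passed the test in limma. The 10 protein-coding windows with the highest mean multiple in G1 were Peg3, Zbtb20, Gm36079, Evi5l, Srgap2, Mtrf1l, Sp1, Agpat1, Fam72a and Ubxn6, with differences from -0.71 at Agpat1 to 0.50 at Mtrf1l. Peg3, an imprinted zinc finger gene, led with 5.59 in 4HT and 6.92 in EtOH and a centred difference of 0.06 (limma, adjusted p = 0.995). Sp1, the GC-box factor, had 5.27 and 5.87 and a difference of 0.22. Srgap2 and Fam72a are neighbours with a shared promoter, so their values of -0.46 and -0.49 are one observation. The windows of Peg3, Zbtb20, Agpat1 and Ubxn6 also carry the name of another gene.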

How the data were processed

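The authors deposited 2 tables of coverage signal, per the file headers 1 column for each treatment and fraction; no header names a replicate, so the 2 libraries of a group were taken as pooled. The submitters' processing notes list mm10 as the build, and name featureCounts and DESeq2 without saying what either did; the aligner is not given in the sources used here. From the values, the signal was read as coverage in counts per M reads, averaged over covered bases, and its smallest value as 1 read; implied depths were 6.78 to 11.2 M reads, and no interval of counting error was derived. Of 38087 deposited windows, 38053 were distinct.

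Each column was divided by its smallest value. Rows read in all 8 columns whose mean multiple reached 1.3 (windows) or 2 (regions) were taken as log2 multiples and centred by cyclic loess (span 0.3, 3 iterations) in limma 3.58.1, R 4.3.3. The model held fraction means, a treatment term for G1 and one shared by ES, LS and G2, with 2 residual degrees of freedom, trend and robust moderation, and Benjamini-Hochberg adjustment at 0.05. Differences are 4HT minus EtOH on the log2 scale. Since a multiple cannot go below 1, a fall to that value or a rise from it is understated. The fit was also run on simulated data with independent noise of the same size in every column. That run cannot check whether G1 varies like the other fractions, and nothing is drawn from it here.

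Windows took RefSeq names (GRCm38.p6) from a TSS within 500 bp of their reference point, which gave 29774 named windows. Of 560 list genes, a gene with several windows took the one of highest level. Named rows were all called rows, the 10 largest and 10 smallest windows and 6 and 6 regions with a multiple of at least 2 in a G1 column, each list's extremes, the 5 highest one-column rows each way, Foxd3 and the 10 highest windows; predicted symbols were passed over among the largest and smallest, and regions took the name of the nearest TSS. Some rows covered by this rule are not reported here. Members, lists and rules were chosen with earlier results of these data known. Alternatives were other pseudocounts, level minimums and scalings, a Poisson mean per base, and leaving out single fractions.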

Additional observations from a re-analysis of the deposited data

How the results depend on the processing

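No paired analysis was possible because the deposited columns carry no replicate number and pool the 2 libraries of each group; for the same reason single libraries could not be left out. The number of called windows was 7 with log2(signal + 0.1), 15 with log2(signal + 2), 0 without a level minimum, 0 with the higher minimum, 22 (all higher) as deposited without centring, where the median of all windows was 0.25, and 21 (6 higher, 15 lower) with a Poisson mean per base. It was 6 without the ES, 5 without the LS and 0 without the G2 fraction. Column medians in place of loess kept it at 2. Windows whose G1 difference differed from the mean of the other fractions numbered 18 as deposited, 4 with the Poisson mean, 1 without ES and 6 without LS, and 0 otherwise. Called regions numbered 56 (13 higher, 43 lower) with the Poisson mean and 8 without ES, and 0 otherwise; regions unlike the other fractions numbered 1 without ES and 0 otherwise. Called list members were 0 without a level minimum, with the higher minimum and without G2, and 2 as deposited. Of the one-column rows, 4HT held 34% of windows and 34.2% of regions; at a multiple of at least 2 it held 66.7% of 3 windows and 18.4% of regions, and at 1.5 24.1% of regions. Of the 90 named windows and regions, only the 2 called windows, Pik3r3 and Gm40864, could lose the threshold. For the others, keeping their side means not passing. The 90 rows gave 851 values under the alternatives. Of these, 799 kept their sign and side of the threshold, 34 passed it and 6, all of called windows, lost it. Another 12 changed sign, none of a called window. Those 12 were, as deposited, Cdx2 (0.034), E2f1 (0.10), Lhx2 (0.088) and Msx1 (0.014); with column medians, Peg3 (-0.14), Zbtb20 (-0.018), Evi5l (-0.070) and Gm36079 (-0.21); and, for Gm36079 at a difference near 0, -0.013 with log2(signal + 0.1), -0.044 with the higher minimum, -0.024 with the Poisson mean and -0.013 without ES. The cause of these moves was not tested, beyond the smaller number of rows tested under the higher minimum (2301 windows). Low intervals are limited by the measure: 20.2% of the windows and 34.5% of the regions stood at the value of 1 read in 4HT. Reads that do not overlap also give that value, so these shares do not count intervals with a single read.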

Other observations

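Windows of the X chromosome had a median G1 difference of 0.07 (231 windows, 58.0% above the median of all windows), and its regions one of 0.29 (127 regions, 64.6% above the median of all regions). Both were the highest of any chromosome, X was not chosen in advance, and no test was run. Autosome medians ran from -0.044 (chromosome 19) to 0.046 (chromosome 18) for windows. For regions they ran from -0.097 (chromosome 19) to 0.073 (chromosome 18). In ES, LS and G2 the medians of the X windows were -0.013, -0.019 and -0.004, and those of the X regions were 0.02, -0.12 and 0.06. Without a level minimum the X medians in G1 were 0.02 for 1868 windows and 0.09 for 673 regions, which is 0.009 and 0.050 above the median of all rows. The 4HT column was the shallower of its pair in G1 and also in G2 (8.87 against 11.2 M reads). The part of depth in the X values was not tested. Ribc1 and Smc1a, described above, lie on this chromosome.

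Outside named protein-coding genes, an unnamed window at chr2:22588184-22593183 had a G1 difference of 1.14 at a high level, with 15.5 in 4HT and 9.24 in EtOH, and 9.47 to 13.5 in the other columns (limma, adjusted p = 0.145). The window of the predicted gene Gm3993 (chr12:20069233-20074232) had 1.80 and 5.17, a difference of -1.27, SE 0.30 (limma, adjusted p = 0.159), and its other columns lay between 1.57 and 2.72. An unnamed window at chr14:3083036-3088035 had 1.07 and 2.72 and a difference of -1.18 (limma, adjusted p = 0.124). The window shared by the histone genes H2ac24 and H4bc24 (chr13:21831226-21836225) had 1.92 and 1.02 in G1, 1.57 and 1.0 in ES, 1.27 and 1.0 in LS, and 1.78 and 1.84 in G2, with a G1 difference of 1.04, SE 0.26 (limma, adjusted p = 0.242). Apart from the overlapping windows on chromosome 2, these were chosen after their values were seen. They had the smallest p among windows that the naming rule passed over or left out.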
